A study of Rattus norvegicus with 12 samples.

Results

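The EGR factors and NAB corepressors are 6 genes, Egr1, Egr2, Egr3, Egr4, Nab1 and Nab2. They were represented by every probe set whose single gene symbol in the platform annotation was one of these names. This gave 9 of the 31042 probe sets that are not array controls, for 6 of the 14217 genes so named. The samples were gonadotrope-enriched cultures, in which the gonadotropes of the pituitary, the source of luteinizing hormone (LH) and follicle-stimulating hormone, are over-represented. The donors were adult female Sprague-Dawley rats ovariectomized 2 weeks earlier, with 13 to 15 anterior pituitaries in each experiment, so every sample is a pool of animals. After sedimentation at unit gravity the large cells, about 6% of those recovered, were kept, and 40 to 60% of them stained for LH. All cultures were kept with 0.2 nM estradiol (E2), kanamycin sulfate and 10% fetal bovine serum stripped of steroids with charcoal. On day 3, 6 samples received 10 nM gonadotropin-releasing hormone (GnRH), the hypothalamic peptide that drives these cells, and 6 received vehicle, in each case for 40 min. Both groups came from the same 3 cell preparations, called enrichment sets I, II and III, with replicates 1 and 2, 3 and 4, and 5 and 6 of each agent.

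EGR proteins are zinc-finger transcription factors that bind GC-rich sites, and their genes are immediate early genes: their transcription starts within minutes of a signal, through proteins already in the cell. In the gonadotrope, the GnRH receptor activates protein kinase C and the MAP kinase cascade, which act on serum response factor and its ETS partners at the Egr1 promoter. EGR1 then drives the LH beta gene Lhb together with the nuclear receptor NR5A1 and the homeodomain factor PITX1. NAB1 and NAB2 have no DNA-binding domain of their own: they bind EGR1, EGR2 and EGR3 and bring in the CHD4-containing NuRD repressor complex, and they do not bind EGR4. NAB2 is itself known as a gene that EGR proteins induce, in other cell types.

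Of the EGR genes, Egr1, Egr4 and the brighter probe set of Egr2 had a higher mean in GnRH samples in each of the 3 preparations, and Egr3 did not. Single samples overlapped within some preparations for Egr2 and for the brighter Egr4 probe set. The widest separation belonged to a dim probe set of Egr4, whose 6 GnRH signals all lay above its 6 vehicle signals. Of the corepressors, Nab2 had a lower mean after GnRH in each preparation and Nab1 varied between preparations. None of these differences passed limma's test after Benjamini-Hochberg adjustment, in which 1 of 18625 tested probe sets (0.00537%) was called higher and 0 were called lower. Without the intensity filter 1 of 31042 (0.00322%) was called higher and 0 lower.

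The arrays differed in the signals of their controls. After scaling, the geometric mean of the bacterial hybridisation controls was 2264 to 11705 on 5 arrays, the 4 of set I and Vehicle 5, and 53482 to 320024 on the other 7. Vehicle 3 stood apart: its Spearman correlation with each other array had a median of 0.376, where the other 11 arrays had medians of 0.623 to 0.715. Control probe sets for Bacillus subtilis genes, taken here as background, had a median signal of 250.5 on Vehicle 3 and 10.3 to 126 elsewhere. The gonadotrope product Lhb was bright on every array, from 12563 to 152897 in vehicle and from 21368 to 152379 in GnRH samples. The gonadotrope list had 7 of 7 markers tested, with a summed signal of 40935 to 478673 in vehicle and 87006 to 509719 in GnRH samples. Its brightest genes dominate this sum. Of the 7 markers, 5 were higher in GnRH samples and 2 were lower, Nr5a1 at -1.15 and Foxl2 at -0.67 on the log2 scale. Markers of other cells were also present, and growth hormone (Gh1) ran from 16159 to 1055844 in vehicle and from 50612 to 596023 in GnRH samples. Heat shock and dissociation stress genes were higher in GnRH samples in 6 of 6 tested cases, against 54.6% of all tested genes. Their summed signal was 8132 to 20007 in vehicle and 14820 to 21414 in GnRH samples, with a median log2 difference of 0.32. The preparations differed. Hmox1 gave 2.84 in set II, which holds Vehicle 3, against 0.10 and 0.12 in sets I and III. Hspa1a was lower in set I (-0.25), and Hsph1 and Dnaja1 were lower in set III (-0.32 and -0.12). Over 9 lists of markers and stress genes, 0 of 38 tested genes passed limma's adjusted test. An unadjusted limma p under 0.05 was found for 351 of all 10680 tested genes and for 2 of the 38. One was Pomc, the adrenocorticotropin precursor of corticotropes, with a log2 difference of -1.77 ± 0.50 (SE, n = 6 per group; -0.55, -2.35 and -2.40 by set) and signals of 143 to 1516 with vehicle and 34.1 to 1175 with GnRH. The other was Anxa1, of folliculostellate cells, at 0.62 ± 0.29 (SE, with 0.33, 1.24 and 0.30 by set). Other markers of these cells went the other way. The second tested corticotrope marker, Tbx19, differed by 0.64. Of the 5 folliculostellate and stem cell markers 3 were higher and 2 were lower, S100b at -0.84 and Aldh1a2 at -0.80. The part of these markers in the results below was not tested. Since the samples are bulk RNA, a change in RNA per cell and a change in the share of a cell type cannot be told apart.

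**Figure D1:**
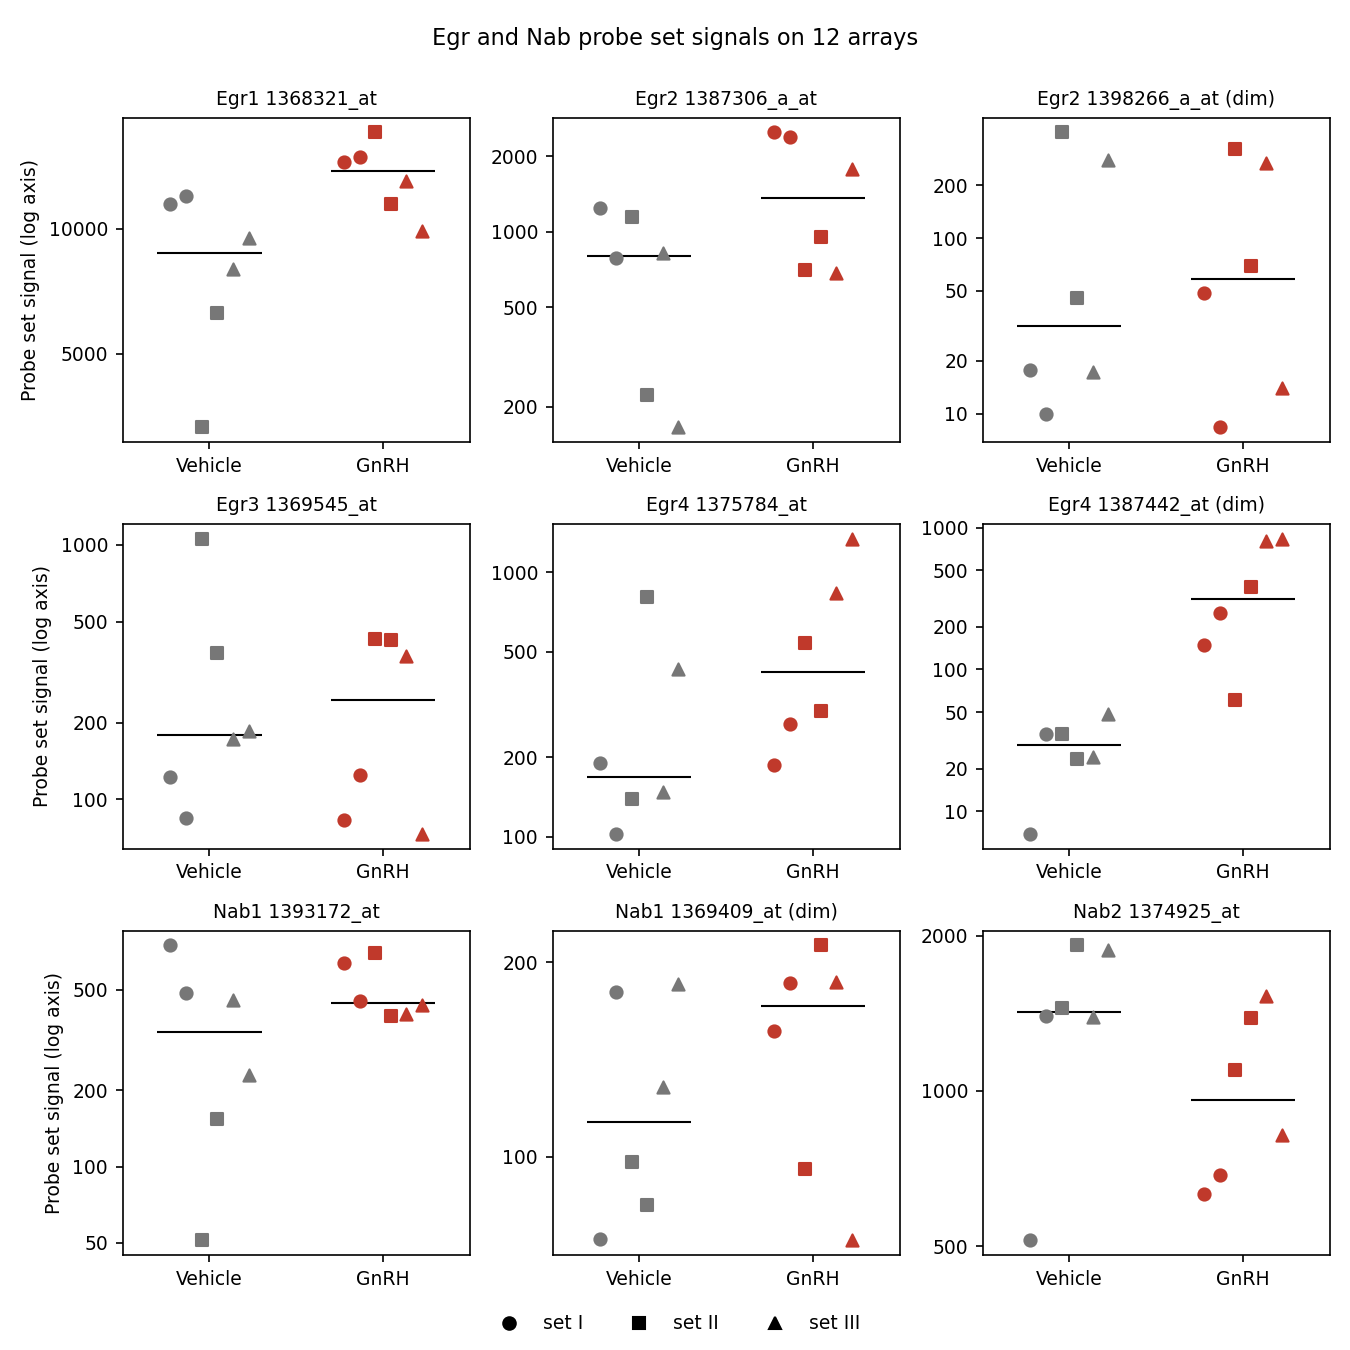
Signal of each of the 9 probe sets on each of the 12 arrays, on a log axis, after each array was scaled to a common trimmed mean. Grey symbols are vehicle and red symbols GnRH samples, circles, squares and triangles mark sets I, II and III, bars are group medians, and "dim" marks a probe set below the intensity filter. Only the Egr4 probe set 1387442_at, with 6.92 to 48.6 in vehicle and 61.3 to 833 in GnRH samples, has groups that do not overlap.

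The promoters of the member genes, whether higher or lower after GnRH, were searched for the sites through which early induction is known to run. The RefSeq table of assembly GRCr8 held a window from 250 bases before to 50 bases after the transcript start for 5 of the 6 genes, all but Egr3. The 250 bases upstream are printed 5′ to 3′ on the gene's strand for the EGR genes with higher signals and for Nab1, which has EGR sites of its own. In the EGR genes, capitals mark CArG boxes, the sites of serum response factor, and CRE cores (TGACG on either strand), the letters that CREB proteins recognise. In Nab1, they mark CRE cores and EGR sites (GCGNGGGCG on either strand). The windows lie at chr18:26736828-26737077 on the plus strand for Egr1, chr20:21054442-21054691 on the minus strand for Egr2, chr4:119607818-119608067 on the minus strand for Egr4 and chr9:56545392-56545641 on the plus strand for Nab1.
Egr1: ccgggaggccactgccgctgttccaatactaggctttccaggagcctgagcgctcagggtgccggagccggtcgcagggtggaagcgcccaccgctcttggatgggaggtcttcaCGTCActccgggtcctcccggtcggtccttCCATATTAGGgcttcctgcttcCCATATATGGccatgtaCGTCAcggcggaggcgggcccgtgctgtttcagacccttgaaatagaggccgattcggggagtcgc
Egr2: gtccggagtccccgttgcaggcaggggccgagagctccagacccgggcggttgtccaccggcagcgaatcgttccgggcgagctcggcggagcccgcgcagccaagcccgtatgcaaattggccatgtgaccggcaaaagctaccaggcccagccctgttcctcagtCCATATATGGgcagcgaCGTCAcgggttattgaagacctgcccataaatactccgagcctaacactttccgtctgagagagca
Egr4: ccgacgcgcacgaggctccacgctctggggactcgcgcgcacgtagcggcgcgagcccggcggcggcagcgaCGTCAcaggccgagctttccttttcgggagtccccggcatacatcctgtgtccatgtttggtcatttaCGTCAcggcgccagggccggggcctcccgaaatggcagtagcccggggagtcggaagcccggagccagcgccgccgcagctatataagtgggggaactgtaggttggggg
Nab1: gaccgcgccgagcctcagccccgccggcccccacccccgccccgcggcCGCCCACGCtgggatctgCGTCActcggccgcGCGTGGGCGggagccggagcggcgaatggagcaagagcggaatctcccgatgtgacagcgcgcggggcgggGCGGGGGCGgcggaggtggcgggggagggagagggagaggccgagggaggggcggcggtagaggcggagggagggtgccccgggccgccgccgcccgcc

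Counting from the transcript start over the 300-base window, Egr1 had CArG boxes at -105 and -83, and Egr2 had 1 at -83. A CArG box was present in 1.64% of the 33469 promoters in the table, and at least 2 in 7 of them (0.0209%). CRE cores stood at -135 and -66 in Egr1, at -66 in Egr2, at -178 and -110 in Egr4 and at -184 in Nab1. The CRE core is common, being in 21.2% of promoters, and the full CRE (TGACGTCA, 1.83%) was in 0 of the 5. A CArG box and a CRE core in the same window, as in Egr1 and Egr2, occurred in 91 promoters (0.272%). No CArG box was found in the windows of Egr4, Nab1 and Nab2. These are matches to letters, and binding was not measured.

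The EGR promoters also held runs of identical sequence. The Egr1 and Egr2 windows shared CCATATATGG, a CArG box at -83 in both, and 11 promoters of the table (0.0329%) held it. Egr1 and Egr4 shared TACGTCACGGCG, at -68 and -112, a run that spans a CRE core and was present in 6 promoters. Egr2 and Egr4 shared GGCAGCGACGTCAC, at -74 and -186, which also spans a CRE core and was present in 2 promoters, their own. Each of these counts includes the pair from which the run was taken, and runs shared by pairs of other promoters were not searched for. In the same comparison, all other pairs of the 5 genes shared at most 9 bases. The EGR site was in 4.98% of promoters and, of the 5, only in Nab1, at -202, -170, -99 and +15, the last of them beyond the printed bases. Each of these 4 sites overlapped a GC box (GGGCGG, the Sp1 site), of which the Nab1 window held 10, against 1 each in Egr2 and Egr4. GC boxes were in 33.1% of promoters, and the TATAAA motif was in 14.2% and in 0 of the 5.

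**Figure D2:**
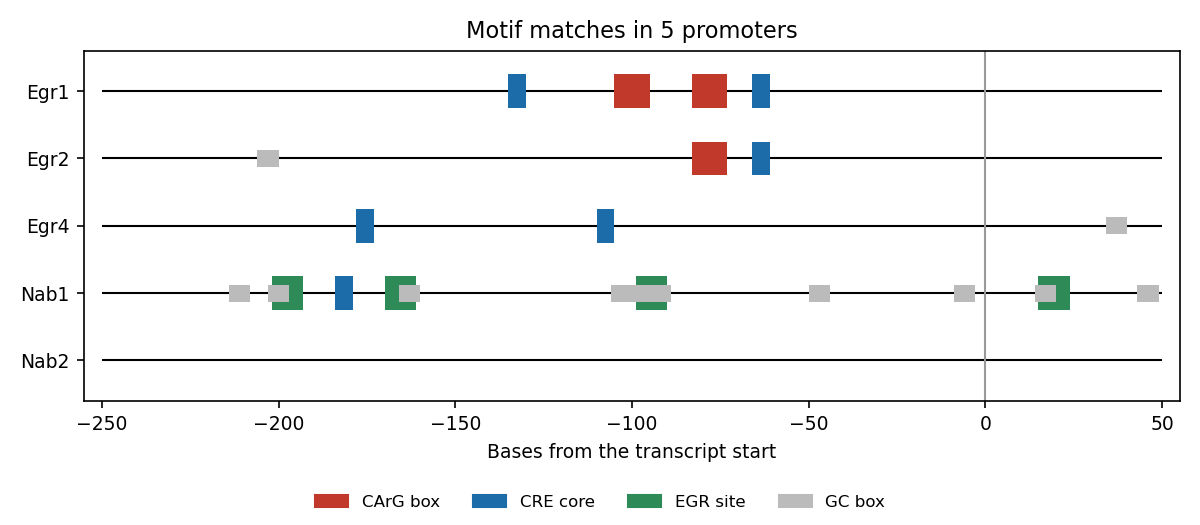
Motif matches on either strand in the RefSeq promoter windows of 5 genes, with position in bases from the transcript start on the horizontal axis. CArG boxes are in red, CRE cores in blue, EGR sites in green and GC boxes in grey. The CArG boxes at -83 in Egr1 and Egr2 line up, and Nab1 alone has EGR sites, 4 of them.

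Egr1, the best known mediator of GnRH action on Lhb, was well detected, with 0 of 12 arrays below the Bacillus subtilis control median. Its signal was 3319, 8766 and 12016 (lowest, median and highest) in vehicle samples and 9896, 13797 and 17096 in GnRH samples. The GnRH samples were the higher in 32 of 36 pairs, with some overlap: the set I vehicle samples, at 11469 and 12016, exceeded GnRH 4 and GnRH 6. The log2 difference of signal plus a pseudocount of 16 was 0.77 ± 0.29 (SE, n = 6 per group), or 1.71-fold (95% confidence interval 1.12 to 2.61; limma adjusted p = 0.981). Set II gave 1.61, against 0.32 for set I and 0.38 for set III. The large set II value involves Vehicle 3, the array that stood apart, which had the lowest Egr1 signal of all. Without that array the difference was 0.55, and it was 0.35 without set II.

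Egr2, also called KROX20 and known for hindbrain patterning and myelination, was the member with the largest difference among those bright enough to test. The lowest, median and highest signals were 165, 804 and 1249 with vehicle, and 687, 1368 and 2497 with GnRH. The highest GnRH signals came from GnRH 1 and GnRH 2 of set I, and the lowest vehicle signals from Vehicle 4 and Vehicle 6, so the groups overlapped and 26 of 36 pairs were higher in GnRH. GnRH minus vehicle was 1.16 ± 0.44 on the log2 scale (SE, n = 6 per group), or 2.24-fold (interval 1.17 to 4.27; limma adjusted p = 0.981). The preparations gave 1.29, 0.66 and 1.53 as differences of means, but the samples overlapped in sets II and III. In set II, Vehicle 3 at 1146 lay above both GnRH samples (706 and 952). In set III, GnRH 5 at 687 lay below Vehicle 5 at 821. Unlike for Egr1, omission of Vehicle 3 gave a larger value, 1.51, and single-array omissions gave 0.84 to 1.51.

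The other Egr2 probe set, 1398266_a_at, lay below the intensity filter and did not show this. Its signals were 9.93, 31.7 and 401 in vehicle and 8.33, 58.8 and 320 in GnRH samples, below the Bacillus subtilis control median on 2 arrays of each group. The fitted log2 difference was 0.13 ± 0.71 (SE, n = 6 per group), and 18 of 36 pairs were higher in GnRH. The brightest arrays, Vehicle 3, GnRH 3, Vehicle 6 and GnRH 5, all belonged to the 7 with high hybridisation controls. The signal of this probe set was 4.46-fold higher on those 7 arrays than on the other 5, whereas that of the bright Egr2 probe set was 2.16-fold higher on the 5.

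Egr4, an EGR factor best known from neurons, had a pair of probe sets that both had a higher mean after GnRH in each preparation. The probe set 1387442_at, designed on the Egr4 reference transcript, had signals of 6.92, 29.5 and 48.6 in vehicle and 61.3, 316 and 833 in GnRH samples. All 36 pairs were higher in GnRH, a full separation that 0.0483% of all 31042 probe sets showed in this direction and 0.0387% in the other. Sorted by preparation, the GnRH signals were 149 and 250.5 in set I, 61.3 and 381 in set II, and 799 and 833 in set III, so set III was the brightest. The log2 difference in the fit without an intensity filter was 2.87 ± 0.60 (SE, n = 6 per group), and the preparations gave 2.62 (set I), 1.97 (set II) and 4.03 (set III). It ranked 3 of 31042 probe sets by limma p-value and did not pass after adjustment (limma adjusted p = 0.99991).

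The size of the Egr4 difference is uncertain because the vehicle signals were dim. The probe set lay at the 27.0th percentile by mean log2 signal, below the filter at the 40th, so it was not among the probe sets of the main test. In 4 of 6 vehicle samples and 1 of 6 GnRH samples the signal was below that array's Bacillus subtilis control median. The fitted ratio was 7.33-fold (interval 3.07 to 17.5). Each vehicle signal was also taken at the higher of its own value and the control median. The ratio of means was then 4.10-fold over the 3 sets, with 5.72 and 11.0 in sets I and III and 1.09 in set II. These are point values without an interval, so they are not a minimum. Set II holds Vehicle 3, the array with the highest background. When limma weighted the arrays by their scatter, the difference was 2.79 and passed (limma adjusted p = 0.0459), the 1 setting of 30 in which a member was called. Over the tested probe sets such weights were 2.13 to 4.87 for the 4 arrays of set I and 0.17 to 0.92 for the others. Set I, with 2 samples per agent, thus carried most of the weight. Single-array omissions gave 2.64 to 3.28, with limma adjusted p from 0.303 to 1.000, and without Vehicle 3 it was 3.03.

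The brighter Egr4 probe set, 1375784_at, was designed on an expressed sequence tag. Its signals were 103, 169 and 804 in vehicle and 187, 418 and 1336 in GnRH samples. In 1 vehicle sample, Vehicle 3 at 139, the signal was below the control median. The groups overlapped, mainly through Vehicle 4 and Vehicle 6 at 804 and 429, and 28 of 36 pairs were higher in GnRH. Within set II, Vehicle 4 lay above both GnRH samples (538 and 298). Within set I, GnRH 1 at 187 lay just below Vehicle 1 at 190. GnRH minus vehicle was 0.94 ± 0.51 on the log2 scale (SE, n = 6 per group), or 1.92-fold (interval 0.910 to 4.06; limma adjusted p = 0.981), and the preparations gave 0.61, 0.22 and 1.99 in order. In both probe sets the smallest difference was in set II and the largest in set III. The brightness of this probe set moved with the hybridisation controls, being 2.82-fold higher on the 7 arrays where those were high, against 2.20-fold for 1387442_at, and its part in the GnRH difference was not tested. In set III, Vehicle 5 was the array with low controls, and without it GnRH minus vehicle was 0.63 for this probe set and 2.64 for 1387442_at.

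Egr3, known for its role in muscle spindle development and another immediate early gene, was not higher in GnRH samples. The lowest, median and highest signals were 84.6, 179 and 1058 with vehicle, and 73.2, 246 and 429 with GnRH. The vehicle range enclosed 4 of 6 GnRH values, and 16 of 36 pairs were higher in GnRH. GnRH minus vehicle was -0.21 ± 0.49 on the log2 scale (SE, n = 6 per group), a ratio of 0.863 (interval 0.423 to 1.76; limma adjusted p = 0.993), so a change of up to 1.76-fold upwards lies within the interval. The preparations gave -0.0020, -0.56 and -0.08. The highest signal was that of Vehicle 3, and without it the difference was 0.01. Egr3 signal was 2.65-fold higher on the 7 arrays with high hybridisation controls.

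**Figure D3:**
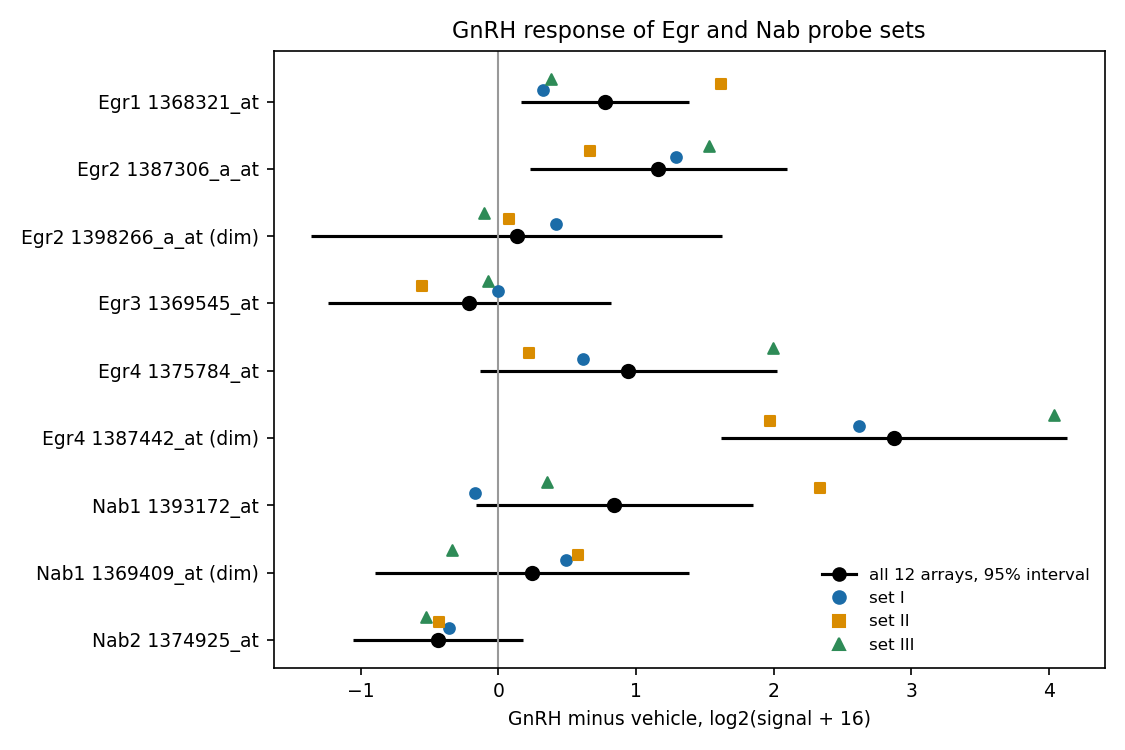
GnRH minus vehicle difference in log2(signal + 16) for each probe set. Black points with bars are the fit over all 12 arrays with its 95% interval, and blue, orange and green symbols are sets I, II and III alone; "dim" marks probe sets below the intensity filter, fitted without it. The intervals of Egr1 (0.77), Egr2 1387306_a_at (1.16) and Egr4 1387442_at (2.87) lie above 0 before adjustment for the number of probe sets, and Nab2 (-0.44) is the lowest.

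Nab1 encodes the corepressor that most cells make constitutively. The probe set 1393172_at had signals of 51.1, 341 and 748 in vehicle and 393, 442 and 696 in GnRH samples. The GnRH samples fell within a narrow band inside the vehicle range, and 22 of 36 pairs were higher in GnRH. The log2 difference of 0.84 ± 0.48 (SE, n = 6 per group; 1.79-fold, interval 0.892 to 3.60; limma adjusted p = 0.981) came mostly from set II, at 2.34, against -0.17 in set I and 0.36 in set III. The lowest vehicle signals were those of Vehicle 3 and Vehicle 4, at 51.1 and 154. The Vehicle 3 signal lay below that array's Bacillus subtilis control median of 250.5, and with signals raised to that median the difference was 0.51. Without Vehicle 3 it was 0.49, and without set II it was 0.09. The dim Nab1 probe set, 1369409_at, had signals of 74.5 to 185 in vehicle and 74.2 to 213 in GnRH samples, with a difference of 0.24 ± 0.55 (SE, n = 6 per group).

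Nab2, the corepressor gene known to respond to EGR proteins, was the member whose mean was lower after GnRH in all 3 preparations by similar amounts. The lowest, median and highest signals were 513, 1424 and 1916 with vehicle, and 632, 959 and 1531 with GnRH. Of the vehicle samples 5 lay between 1393 and 1916 and Vehicle 1 stood far below them, while 4 of the GnRH samples lay between 632 and 1098, so that 9 of 36 pairs were higher in GnRH. GnRH minus vehicle was -0.44 ± 0.29 on the log2 scale (SE, n = 6 per group), with vehicle 1.35-fold the GnRH level, and it did not pass (limma adjusted p = 0.981). The preparations gave -0.36, -0.43 and -0.52, but the samples overlapped in sets I and III. In set I, Vehicle 1 at 513 lay below both GnRH samples (632 and 688), so the lower GnRH mean there rested on Vehicle 2, at 1399. In set III, GnRH 5 at 1531 lay above Vehicle 5 at 1393. Single-array omissions gave -0.62, without Vehicle 1, to -0.27, without Vehicle 2. The interval of the ratio of GnRH to vehicle, 0.482 to 1.13, includes no change, and a rise of more than 1.13-fold lies outside it.

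Because Egr1 and Nab2 differed in opposite directions, their log2 difference was also followed on each array. Its level depends on the brightness of the probes, so only its change between samples is read. Its lowest, median and highest values were 1.19, 2.42 and 4.44 with vehicle, and 3.04, 3.75 and 4.49 with GnRH, with means of 2.54 ± 1.14 and 3.75 ± 0.63 (SD, n = 6 per group). GnRH samples were 1.21 higher, in 29 of 36 pairs, and the groups overlapped through Vehicle 1 and Vehicle 2 of set I, at 4.44 and 3.09. Within sets I, II and III the GnRH samples were higher by 0.68, 2.05 and 0.90, and in sets II and III both GnRH values exceeded both vehicle values. Single-array omissions gave 0.985 to 1.44. The pair was chosen with the genes' values known, so these values are a description.

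**Figure D4:**
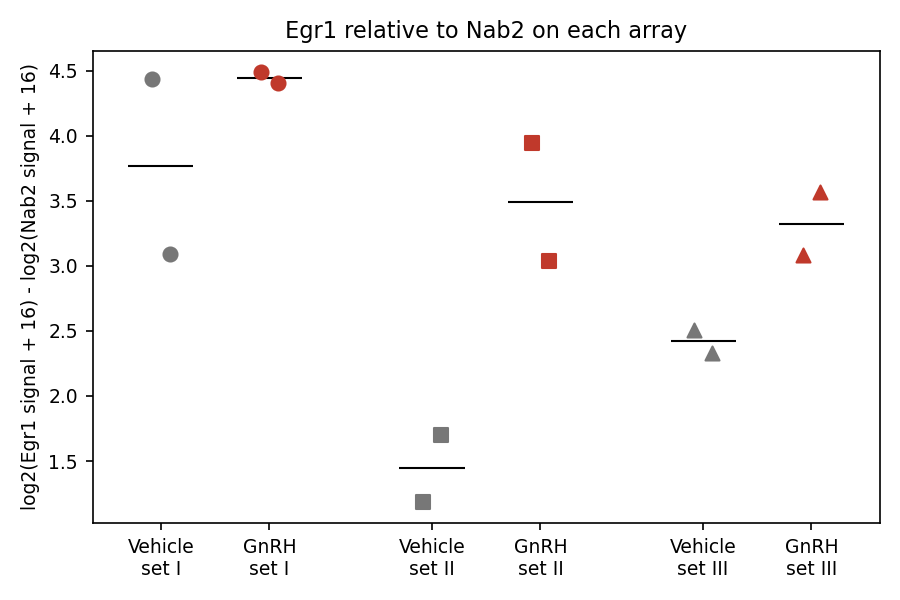
Egr1 minus Nab2 in log2(signal + 16) on each of the 12 arrays, by agent and enrichment set, with bars at the mean of each group of 2. In sets II and III both GnRH arrays lie above both vehicle arrays, and in set I Vehicle 1 (4.44) lies beside the GnRH arrays.

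Counted over the 9 probe sets, 7 were higher in GnRH, against 53.7% of all probe sets, and 4 had a higher mean in each preparation, against 12.8%. These 4 were Egr1, the bright Egr2 probe set and both Egr4 probe sets. Egr3 and Nab2 had a lower mean in each preparation, against 10.6% of all probe sets, with Egr3 at -0.0020 in set I. At an unadjusted limma p under 0.05, 3 of the 9 were higher (Egr1, Egr2 1387306_a_at and Egr4 1387442_at), against 2.05% of all probe sets, and 0 were lower, against 1.47%. By the criterion of the study, a fold change no smaller than 1.5 in the group means and in at least 50% of the 36 GnRH-vehicle pairs, 5 were up, against 10.9% of all probe sets. These were Egr1 with 52.8% of pairs, the bright Egr2 probe set and Egr4 1375784_at with 63.9% each, Egr4 1387442_at with 97.2% and Nab1 1393172_at with 52.8%. Without Vehicle 3, or without Vehicle 4, Egr1 and Nab1 no longer met it and 3 were left. The study's GCOS change calls, on which its concordance rested, were not recomputed.

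The response to GnRH was next compared between preparations. The moderated F test of agent by set called 0 of the 9 probe sets, and 0 (0%) of all 18625 tested probe sets. At an unadjusted p under 0.05 it called 0 of the 9, against 6.33% of all probe sets, and Nab1 1393172_at came closest (limma adjusted p = 0.927). Levels were also compared between preparations, whatever the agent. Egr3 had mean log2 values of 6.88, 9.07 and 7.57 (sets I to III; limma adjusted p = 0.0686), and Nab2 had 9.58, 10.50 and 10.41 (limma adjusted p = 0.155). Egr2 1387306_a_at ran the other way, with 10.62 in set I against 9.38 and 9.37. By the adjusted test 0 of 6 tested members differed in level, against 6.02% of tested probe sets. With array weights, which were highest on the arrays of set I, 4 of 6 did (Egr2, Egr3, Egr4 and Nab2), against 24.3%. Set I held only arrays with low hybridisation controls, so its level cannot be told apart from that property of the arrays.

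The genes around the EGR factors were followed in 4 lists, of which 44 of 60 genes were tested, 25 were higher and 0 passed limma's adjusted test. Over all 10680 tested genes the median log2 difference was 0.04, 54.6% were higher and 1 was called (0.00936%). The partners of EGR1 at the Lhb promoter had 6 of 8 tested genes higher and a median of 0.32. Among them, Lhb itself differed by 0.74 ± 0.55, Ctnnb1, which encodes the coactivator beta-catenin, by 0.86 ± 0.46 and Nr5a1, the nuclear receptor partner, by -1.15 ± 0.59 (log2, SE, n = 6 per group). The Nr5a1 difference was -2.45 in set II, where GnRH 4 had a signal of 26.2, below that array's Bacillus subtilis control median of 59.6. The route from the GnRH receptor to Egr1 had 7 of 17 higher and a median of -0.03. There Rps6ka3, a kinase downstream of ERK, differed by 1.30 ± 0.53, most in set II (2.78, against 0.12 and 1.02 in sets I and III). Mrtfa, a serum response factor coactivator, differed by 0.66 ± 0.39, and the protein kinase C gene Prkce by 0.58 ± 0.41.

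The NuRD complex that NAB proteins recruit had 5 of 9 genes higher and a median of 0.03, close to that of all genes. The deacetylase gene Hdac1 differed by 0.66 ± 0.37, the subunit gene Mta2 by -0.54 ± 0.45 and the histone-binding gene Rbbp7 by 0.35 ± 0.30 (log2, SE, n = 6 per group). Of the genes known as EGR targets, 7 of 10 tested were higher, with a median of 0.37. The largest difference was that of Arc, an activity-regulated gene of neurons that EGR proteins bind, whose signals of 28.1 to 116 in vehicle and 214 to 1242 in GnRH samples did not overlap. The Arc value was 2.58 ± 0.45 on the log2 scale (SE, n = 6 per group; limma adjusted p = 0.277). Arc reached the intensity filter only through the GnRH samples (mean log2 value 9.004, against 6.43 with vehicle, where the filter stood at 7.35), so its place among the tested genes depends on the difference itself. Its highest vehicle signal, 116, lay below the control medians of Vehicle 3 (250.5) and Vehicle 6 (126), so on those arrays it was not above background. Cd44, a hyaluronan receptor gene, differed by 1.06 ± 0.41, with 2.36 in set II, and the matrix protease gene Mmp14 by -0.94 ± 0.46. The remaining tested targets were between -0.10 and 0.92.

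**Figure D5:**
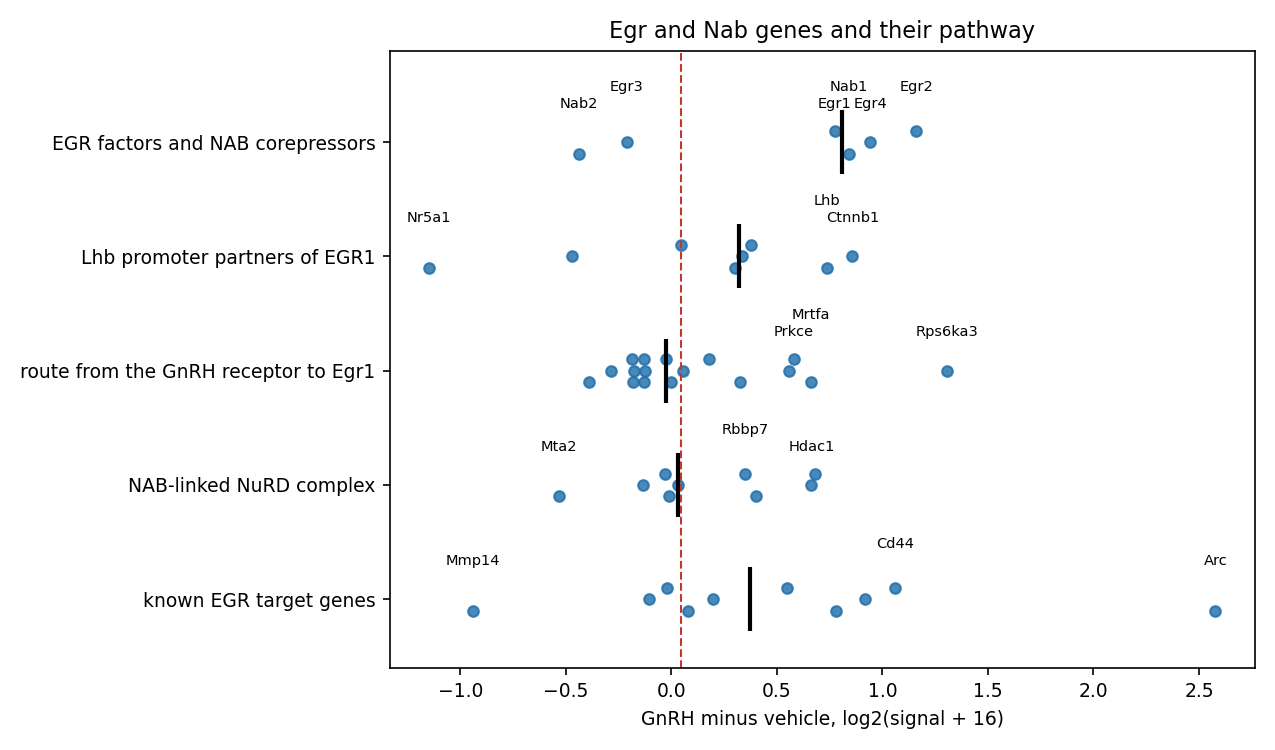
GnRH minus vehicle difference in log2(signal + 16) for the tested genes of the EGR and NAB group and of 4 lists around it. Each blue point is a gene at its brightest tested probe set, black bars are list medians and the dashed red line is the median of all 10680 tested genes (0.04). The EGR and NAB genes split into 4 near 0.8 to 1.2 and 2 below 0, and the NuRD list is centred near the line.

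Other genes were ranked by how closely their values tracked Egr1 and Egr2 over the 12 arrays, after removal of each preparation's mean, as a root mean square (RMS) difference in log2 value. For Egr1 the nearest of 10674 genes, the 6 members being left out, were Ddx59 (RMS 0.180), Perm1 (0.208), Ccdc136 (0.224), Trim5 (0.227) and Slc11a2 (0.239), against a median of 0.757. The ranking itself selects for a like profile: all 5 had a difference of 1.34 to 1.70 in set II and smaller ones in sets I and III. In set I, Slc11a2 was at -0.17, where Egr1 was at 0.32. For Egr2 the nearest were Setd6 (0.395), Gemin2 (0.406), Slc12a5 (0.452), Prr15l (0.460) and Dmac2l (0.475), against a median of 1.16. These 12 points share the arrays, their scaling and Vehicle 3, and the ranking is a description.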

How the data were processed

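RNA from 12 samples of cultured cells was amplified by T7 polymerase and hybridised to Affymetrix rat expression arrays, per the labels' protocols. The authors deposited linear intensity values per probe set, computed in GCOS per the submitters' processing notes (version not given in the sources used here) and already scaled, with trimmed means of 497 to 499. Arrays were brought to a trimmed mean of 500 (2% trimmed at each end) over the 31042 probe sets that are not among the 57 controls, and log2(signal + 16) was taken, which understates folds of dim probe sets. Probe sets at or above the 40th percentile of mean log2 value (7.35) were tested, 18625 in all; 6 of the 9 Egr and Nab probe sets passed, and the other 3 were fitted without a filter. limma 3.58.1 under R 4.3.3 fitted enrichment set and agent with an intensity trend, with Benjamini-Hochberg adjustment over all tested probe sets and a threshold of 0.05. The scripts were tested on simulated data. The exact permutation p of the Egr1 to Nab2 value is not given because the pair was chosen with results known.

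The members and lists were chosen with earlier results of these data known. Named genes are the members, the 3 genes of each list with the smallest p, and the 5 nearest to Egr1 and to Egr2; the tested probe set with the highest mean stands for a gene in the lists. Symbols came from the platform annotation and promoters from RefSeq. The labels call the samples biological replicates, and nothing says that wells of 1 preparation were separate cultures, so p-values measure the spread between these samples, which may be technical. The number of arrays limits the precision.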

Additional observations from a re-analysis of the deposited data

Results flagged for a closer look

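Nab2 in Vehicle 1 had a signal of 513, far below the other 5 vehicle samples at 1393 to 1916; on log2(signal + 16), the scale tested, the gap to the nearest was 0.756 of the group's range, above Dixon's 95% critical value for 6 samples. On the signals themselves it was 0.627, barely above that value. There the Egr3 vehicle samples had a larger gap, 0.700, from Vehicle 3 at 1058. On the log2 scale Nab2 in Vehicle 1 was the 1 value flagged in 20 such tests, and chance flags about 1 in 20. Without Vehicle 1 the Nab2 difference was -0.62 on the log2 scale, in place of -0.44 with all 12 arrays (limma). The test takes the 6 vehicle samples as 1 group, although they come from 3 preparations. The GnRH samples of the same preparation, set I, had the lowest Nab2 signals of their group, 632 and 688. Within set I it was Vehicle 2, at 1399, that stood apart, and without Vehicle 2 the difference was -0.27.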

How the results depend on the processing

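Over 30 alternatives for each probe set, the differences of Egr1, Egr2 1387306_a_at, Egr4 1375784_at and Nab2 kept their sign and 0 passed limma's adjusted test. Egr4 1387442_at kept its sign (1.97 to 4.03), passed with array weights (2.79) and was 2.08 with signals below the control median raised to it, a setting added once the data had been seen. Egr3 turned to 0.01 without Vehicle 3 and ran from -0.49 to 0.034 with single arrays left out. Of the dim probe sets, Egr2 1398266_a_at ran from -0.24 to 0.57 with each array left out (negative without Vehicle 4, Vehicle 5, GnRH 1, GnRH 3 or GnRH 5: -0.21, -0.23, -0.08, -0.11 and -0.24), and was -0.10 in set III alone and -0.011 without set I. Nab1 1393172_at was -0.17 in set I alone, and Nab1 1369409_at -0.33 in set III alone. Array weights gave 0.46 for Egr1 and 0.19 for Nab1 1393172_at, and quantile normalization 0.57 for Egr1. The count of members whose level differed by set was 0, and 4 with array weights. The count meeting the study's criterion was 5, then 3 with quantile normalization and 3 to 5 with each array left out. Over all probe sets the main test called 1, and alternatives called 0 to 2. The cause was not tested. Same-numbered samples correlated at -0.22 to 0.65 in their deviations, which does not settle whether the numbers pair the samples. With the replicate number as a block 0 members passed, 0 probe sets passed in all, and the Egr1 to Nab2 difference was 1.21. Signals near background limit Egr4 1387442_at, Egr2 1398266_a_at and Nab1 1369409_at.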
